A study of Mus musculus with 8 samples.

Results

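Motor neuron disease has been traced to many genes, and a group of them encodes proteins that bind RNA. Described here are the transcripts of 9 such and related genes, Tardbp, Sod1, Hnrnpa1, Hnrnpa2b1, Matr3, Ewsr1, Taf15, Tia1 and Atxn2, in an RNA capture experiment. They were taken by symbol from the 55471 gene identifiers of the deposited tables, and all 9 were among the 16524 genes that passed the filter on low counts. Most of these proteins carry RNA recognition domains and work in the nucleus on transcription, splicing and RNA transport. Under stress several of them enter stress granules, cytoplasmic bodies of stalled mRNA and protein. Several, Tardbp and Hnrnpa1 among them, hold disordered regions of low sequence complexity, where many disease mutations fall. Sod1 is the exception in the group, an enzyme that clears superoxide, and is a classical disease gene of amyotrophic lateral sclerosis.

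The study asked which RNAs come down with Lhx1os, a long noncoding RNA. Motor neurons were differentiated from the mouse embryonic stem cell line HBG3, in which the Hb9 promoter drives green fluorescent protein, and were kept for 3 days after plating in medium with neurotrophic factors. Input was total RNA before capture. The ODD and EVEN pull-downs used separate sets of biotinylated antisense probes 20 nt long against Lhx1os, and the LacZ pull-down used probes against the LacZ mRNA as the negative control. Each of the 4 groups had 2 libraries, 1 from each of 2 independent experiments, given as replicates 1 and 2. All libraries came from the same reporter line, and the groups differed only in the capture step. The labels used here name no sorting step, so the cells may be mixed, and for bulk RNA fewer cells of a type and less RNA per cell cannot be told apart.

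Total counts ran from 7632775 (LacZ replicate 1) to 24628435 (Input replicate 1). For Lhx1os itself, the target of the probes, Input held 55 and 61 counts, the LacZ libraries held 16 and 28, the ODD libraries 2239 and 371, and the EVEN libraries 1767 and 283. Scaled for depth to CPM (counts scaled to a common library size), Lhx1os was at 2.27 and 2.97 in Input and at 2.06 and 2.44 in LacZ, against 180.1 and 35.7 in ODD and 149.5 and 25.4 in EVEN. The experiments differed in cell type markers. Summed over 7 motor neuron genes, levels were 174.4 to 197.5 CPM in experiment 1 and 337 to 348 in experiment 2. Summed over 4 genes of the oligodendrocyte lineage, they were 569 to 831.5 in experiment 1 and 101.4 to 131.2 in experiment 2. Summed over 3 pluripotency genes, levels were 0.45 and 0.24 in Input and 0 to 0.34 in the pull-downs. Among these 3, Pou5f1 was at 0 in all 8 libraries.

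Except in the marker sums above, which were scaled by total count alone, CPM are given after scaling by the trimmed mean of M-values (TMM). Tests are quasi-likelihood tests in edgeR, Benjamini-Hochberg adjusted over all 16524 genes. With 2 libraries a group, p-values rest on a spread between libraries that was estimated over all groups together. Where group is the only term, that spread also holds the difference between the experiments. In the fit with group as the only term, 0 of the 9 genes passed the adjusted threshold of 0.05 in LacZ against Input, where 7.41% of all genes passed. The count was likewise 0 of 9 in ODD against Input (6.84% of all genes) and in EVEN against Input (5.66%). At an unadjusted p under 0.05 the genes numbered 1 in LacZ (Tia1), 2 in ODD (Tia1 and Hnrnpa1) and 2 in EVEN (Tia1 and Hnrnpa2b1), beside 18.9%, 18.3% and 18.8% of all genes, so these counts were near the background.

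A second fit added the experiment as a block, since same-numbered libraries came from the same experiment. In that fit Tia1 rose over Input with all 3 probe sets and Hnrnpa2b1 rose with ODD and EVEN. The counts were thus 1, 2 and 2 of 9 genes for LacZ, ODD and EVEN, beside 12.7%, 12.6% and 12.8% of all genes called higher in the same fits. Tia1 was also called higher by DESeq2 in LacZ (adjusted p 0.00378) and ODD (adjusted p 0.00996), where 8.67% and 8.16% of all genes were higher, and by limma in LacZ (adjusted p 0.0452, with 5.92% of all genes higher). The median log2 fold change of the 9 genes without the block was 0.09 in LacZ, 0.17 in ODD and 0.19 in EVEN, and that of all genes was -0.05, -0.03 and -0.0019. The 3 comparisons share the Input libraries and are not independent of each other.

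**Figure D1:**
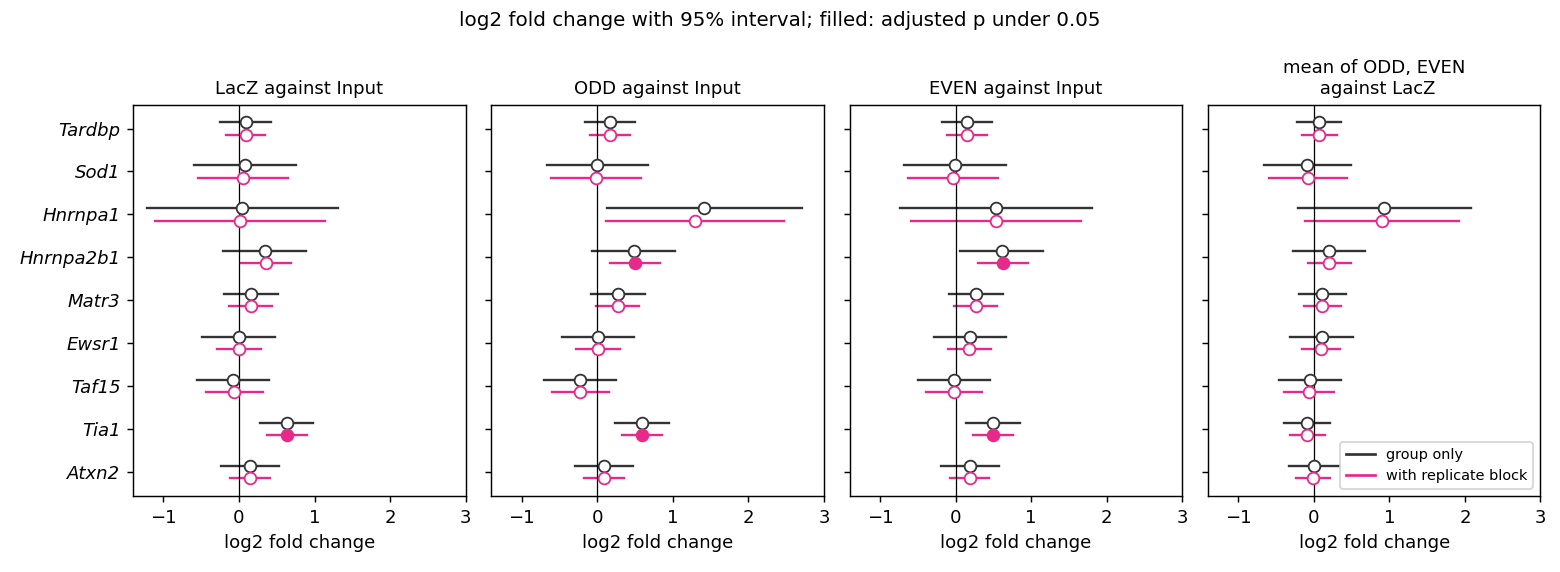
Points are log2 fold changes (x axis) of each of the 9 genes (rows) in 4 comparisons (panels), and lines are 95% intervals, in black for the fit with group as the only term and in pink for the fit with the replicate block. Filled points have an adjusted p under 0.05, which in the fit with the block holds for Tia1 in all 3 comparisons with Input and for Hnrnpa2b1 in ODD and EVEN.

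Direct comparison of the Lhx1os probes with the control probes asked whether any of these transcripts came down with Lhx1os in particular. When ODD and EVEN together were set against LacZ, 0 of the 9 genes passed the threshold, as did 0% of all 16524 genes, with and without the block. Lhx1os itself, the target of the probes, was thus not called either. The count of 0 therefore cannot decide whether any of the 9 transcripts came down with it. Over all genes, 218 had an unadjusted p under 0.05 without the block, and 0 of these were among the 9. The change lay between -0.09 and 0.20 on the log2 scale for 8 of the genes. Hnrnpa1 stood at 0.93 (SE 0.48, 95% interval -0.21 to 2.08, adjusted p 1), and it was called with no filter beyond 1 count (0.94, adjusted p 0.0491), a fit in which 0.202% of all genes were higher. This value depended on 1 library. With the default filter it was 0.30 without ODD replicate 1 and 1.26 without ODD replicate 2.

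A paired view sets each pull-down library over the Input of its own experiment, which gives 6 ratios per gene. All 6 ratios were above 1 for Tardbp, Hnrnpa2b1, Matr3, Tia1 and Atxn2, or 5 of 9 genes, against 23.4% of all genes. For 3 of the 9 genes, Tardbp, Matr3 and Tia1, every pull-down library was also above both Input libraries, against 17.7% of all genes. Each Input library enters 3 of the 6 ratios, so these counts rest on 2 Input libraries.

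**Figure D2:**
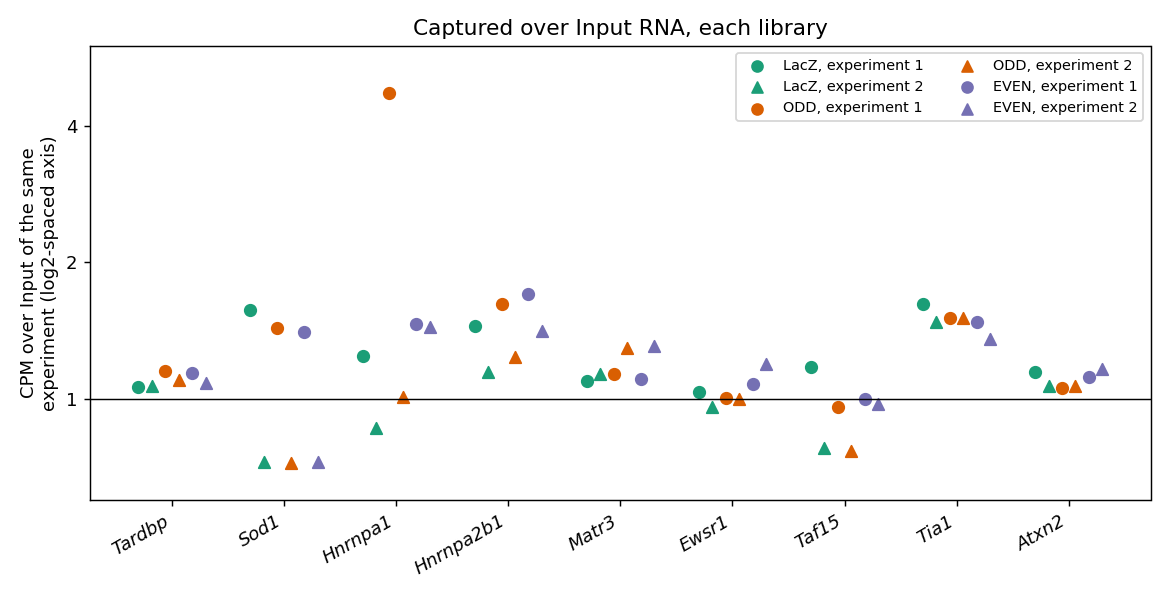
Each point is 1 pull-down library, and the y axis (log2-spaced) gives its CPM over the CPM of the Input library of the same experiment for the 9 genes on the x axis. Tia1 lies between 1.36 and 1.62 in all 6 libraries, Sod1 lies above 1 in experiment 1 and below 1 in experiment 2, and 1 ODD library stands apart for Hnrnpa1 at 4.73.

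Tia1 encodes an RNA-binding protein that helps to nucleate stress granules and also regulates splicing. The gene (ENSMUSG00000071337) lies on the plus strand at chr6:86404219-86433405 on GRCm38. Its level was 172.1 and 192.0 CPM in Input, 279.0 and 284.4 with LacZ probes, 259.2 and 289.3 with ODD and 253.9 and 260.1 with EVEN. All 6 pull-down libraries were above both Input libraries, and the LacZ control libraries lay within the range of ODD and EVEN. The log2 fold change over Input was 0.63 (SE 0.15, adjusted p 0.0534) in LacZ, and for ODD and EVEN it was 0.59 (SE 0.15, adjusted p 0.0703) and 0.50 (SE 0.15, adjusted p 0.125). With the replicate block the changes were 0.63, 0.59 and 0.50 and the adjusted p was 0.0082, 0.0111 and 0.0221. Against LacZ the mean of ODD and EVEN differed by -0.09 (SE 0.13, 95% interval -0.39 to 0.22, adjusted p 1).

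Sequence shared with Lhx1os was searched over its whole transcripts, since the probe sequences were not used here. Whether a probe lies on any match below is therefore unknown. Among the 9 genes Tia1 had the longest exact matches with Lhx1os on either strand. It also had the most exon sequence of the 9, 15750 bases when merged, and match lengths were not adjusted for the length searched. On the same strand a stretch of 19 nt was shared, and 3.28% of 16507 genes had a match at least as long. It lies at chr6:86415328-86415357 (plus strand, GRCm38), in an exon of Tia1-215, a transcript annotated as retaining an intron. Capitals mark the shared bases, here with the matching window of Lhx1os, from base 192 to 210 of Lhx1os-203.
Tia1-215: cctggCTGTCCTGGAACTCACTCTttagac
Lhx1os-203: cccgaCTGTCCTGGAACTCACTCTgcagac
On the complementary strand 18 nt of Tia1-227, another transcript with a retained intron, could pair with bases 241 to 258 of Lhx1os-203, and 3.14% of genes had a match as long. The window lies at chr6:86418032-86418061 (plus strand).
Tia1-227: gattggAGAGGCAGAGGCAGGTAGgtctca
Lhx1os-203: agagatCTACCTGCCTCTGCCTCTgaagta
The capitals are reverse complements of each other. Both windows fall in the introns of coding transcripts, and 14 of the 28 annotated Tia1 transcripts are of the retained-intron class. The part of these matches in the level of Tia1 was not tested. In the other 8 genes the longest match was 10 to 13 nt on the same strand and 11 to 15 nt on the complementary strand, and the median of all genes was 11 nt for either. Some of these shorter matches used the same bases of Lhx1os-203. The same-strand match of Ewsr1 lay within bases 241 to 258, and the complementary match of Atxn2 overlapped bases 192 to 210. Others, such as both matches of Sod1, lay elsewhere. Whether the shared stretches are copies of a repeat found at many places in the genome was not tested. The matches therefore cannot be read as particular to Tia1.

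Hnrnpa1 and Hnrnpa2b1 encode paralogous hnRNP proteins, nuclear RNA-binding proteins that direct splicing and mRNA transport and that carry glycine-rich prion-like tails. Hnrnpa1 (ENSMUSG00000046434, chr15:103240432-103246692, plus strand) was the most abundant of the 9 transcripts per length. Its level was 605.6 and 750.6 CPM in Input, 752.9 and 647.2 with LacZ probes, 2862 and 756.7 with ODD and 887.3 and 1084 with EVEN. ODD replicate 1 alone stood apart, 2.64-fold above the next library and 3.78-fold above ODD replicate 2, while the other 7 libraries lay between 605.6 and 1084. In that library Hnrnpa1 had 35578 counts, the eighth highest of all genes, and took 0.283% of all counts, against 0.0597% to 0.104% elsewhere.

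The log2 fold change of Hnrnpa1 over Input was 1.42 in ODD (SE 0.55, adjusted p 0.222), 0.54 in EVEN (SE 0.54, adjusted p 0.68) and 0.05 in LacZ (SE 0.53, adjusted p 0.981). One library decides the ODD value. Without ODD replicate 1 it was 0.15 (adjusted p 0.821), and without ODD replicate 2 it was 2.07 and was called (adjusted p 0.015, with 3.66% of all genes higher). With no filter beyond 1 count it was 1.38 and was called as well (adjusted p 4.65e-05, with 6.34% of all genes higher). Such an excess was not limited to Hnrnpa1. Of 10569 genes with a mean of at least 10 CPM, 44 were over 2-fold above every other library in ODD replicate 1, or 0.416%, and Hnrnpa1 ranked 26 among them. EVEN replicate 1 held 41 such genes, LacZ replicate 1 and Input replicate 1 held 21 each, Input replicate 2 held 16, and the other 3 libraries held 0. The source of the excess was not tested.

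Low-complexity sequence was examined because it is a feature of these proteins' disordered regions. Masking was run on the bases of whole transcripts, untranslated regions (UTRs) included, so it does not measure the proteins. In Hnrnpa1-201 the program dustmasker masked 5.84% of the bases, more than in 85.4% of genes, and its longest masked stretch, of 95 bases, lay in the coding sequence across an exon junction. The first 30 bases of that stretch, all of them masked and therefore in capitals, hold the triplet GGT several times.
Hnrnpa1-201: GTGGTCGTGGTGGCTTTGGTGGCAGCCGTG
Among the 9 transcripts only that of Atxn2 had a larger masked share. Processed pseudogenes can share reads with their parent gene. The pair named after Hnrnpa1, Hnrnpa1l2-ps and Hnrnpa1l2-ps2, held 13 and 29 counts over all libraries, and how many of their reads were counted to Hnrnpa1 was not tested.

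Hnrnpa2b1 (ENSMUSG00000004980, chr6:51460932-51469894, minus strand) was at 354.0 and 518.5 CPM in Input, 511.8 and 594.1 with LacZ probes, 573.9 and 643.1 with ODD and 603.6 and 731.1 with EVEN. Each pull-down library was above the Input of its experiment, by 1.15-fold to 1.71-fold, but LacZ replicate 1 lay below Input replicate 2. The log2 fold change was 0.34 in LacZ (SE 0.23, adjusted p 0.524), 0.48 in ODD (SE 0.23, adjusted p 0.34) and 0.61 in EVEN (SE 0.23, adjusted p 0.212). With the block these became 0.36 (adjusted p 0.121), 0.50 (adjusted p 0.0463) and 0.63 (adjusted p 0.0218), so ODD and EVEN passed and LacZ did not. The direct test between the probe sets called no difference, but it did not call Lhx1os either. The mean of ODD and EVEN was 0.20 above LacZ with the block (SE 0.12, 95% interval -0.08 to 0.49, p 0.138, adjusted p 1 by edgeR).

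**Figure D3:**
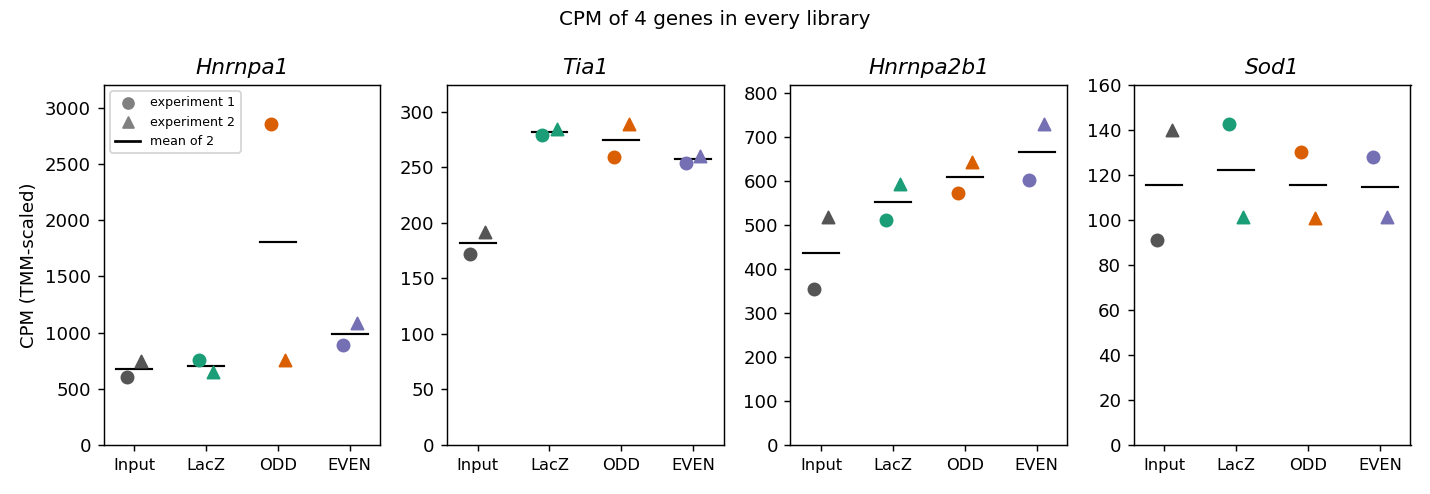
TMM-scaled CPM (y axis, from 0) of Hnrnpa1, Tia1, Hnrnpa2b1 and Sod1 in the 8 libraries, grouped on the x axis by Input, LacZ, ODD and EVEN, with circles for experiment 1, triangles for experiment 2 and a line at the mean of 2. ODD replicate 1 stands apart for Hnrnpa1, every pull-down is above Input for Tia1, and for Sod1 Input is the lowest library of experiment 1 and the highest of experiment 2.

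Tardbp encodes TDP-43, a splicing regulator whose cytoplasmic aggregates mark most amyotrophic lateral sclerosis. The gene (ENSMUSG00000041459, chr4:148612382-148627019, minus strand) was at 291.0 and 305.4 CPM in Input, 308.6 and 325.4 with LacZ probes, 334.9 and 336.2 with ODD and 331.4 and 331.2 with EVEN. It was the steadiest of the 9, with the highest library 1.16-fold above the lowest. All 6 pull-down libraries were above both Input libraries, but by little. The log2 fold change was 0.09 (SE 0.14, adjusted p 0.829) in LacZ, and for ODD and EVEN it was 0.17 (SE 0.14, adjusted p 0.626) and 0.15 (SE 0.14, adjusted p 0.653).

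Matr3 encodes matrin 3, a nuclear matrix protein that binds RNA and DNA. Its gene (ENSMUSG00000037236, chr18:35562138-35593835, plus strand) was at 294.9 and 276.7 CPM in Input, 323.3 and 314.1 with LacZ probes, 333.7 and 357.4 with ODD and 326.2 and 362.2 with EVEN. The pull-downs did not overlap Input, at 1.10-fold to 1.31-fold over the Input of their experiment. The log2 fold change was 0.16 (SE 0.15, adjusted p 0.679) in LacZ, and 0.27 for both ODD and EVEN (SE 0.15, adjusted p 0.409 and 0.408), and none passed with the block either (adjusted p 0.166 to 0.415).

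Ewsr1 and Taf15 encode related proteins of the FET family, which couple transcription to RNA processing. Ewsr1 (ENSMUSG00000009079, chr11:5069689-5099266, minus strand) was at 374.7 and 444.6 CPM in Input, 389.1 and 427.0 with LacZ probes, 377.3 and 444.7 with ODD and 404.0 and 531.1 with EVEN. The library of experiment 2 was the higher one in every group, and the groups overlapped. Taf15 (ENSMUSG00000020680, chr11:83473086-83506743, plus strand) was at 92.1 and 120.2 CPM in Input, 108.0 and 93.7 with LacZ probes, 88.4 and 92.1 with ODD and 92.0 and 117.1 with EVEN. It was the gene with the fewest ratios above 1, 1 of 6. The log2 fold changes over Input lay between -0.01 and 0.19 for Ewsr1 and between -0.23 and -0.02 for Taf15, with adjusted p from 0.64 to 0.995.

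Atxn2 encodes ataxin 2, a partner of poly(A)-binding protein in which repeats of intermediate length raise the risk of amyotrophic lateral sclerosis in people. The gene (ENSMUSG00000042605, chr5:121711337-121816493, plus strand) was at 187.5 and 208.9 CPM in Input, 214.6 and 222.8 with LacZ probes, 198.2 and 223.5 with ODD and 209.1 and 243.3 with EVEN. All 6 libraries were above the Input of their experiment, by 1.06-fold to 1.17-fold, yet ODD replicate 1 was below Input replicate 2. The log2 fold change was 0.09 to 0.19, with adjusted p from 0.61 to 0.858. Atxn2 had the largest low-complexity share of the 9 transcripts, 12.3% of Atxn2-201, more than in 98% of genes. Its longest stretch, of 193 bases, lies in the coding sequence, and its first 30 bases, all masked, stand at chr5:121711649-121711678 (plus strand, GRCm38).
Atxn2-201: CCGCCGCCGCTCAGCGGCCCGCGGCGGGGG
The masked share was 4.57% in Matr3, 2.82% in Ewsr1, 2.14% in Tia1, 1.09% in Sod1, 0.963% in Tardbp, 0.926% in Hnrnpa2b1 and 0.338% in Taf15. The median of genes was 2.03%. In all of the 9 but Hnrnpa1 and Atxn2, the longest masked stretch lay in a UTR, outside the coding sequence. A relation between masked share and capture was not tested. In Lhx1os itself dustmasker, which was run for low-complexity sequence only, masked 0% of the bases.

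Sod1 encodes the cytosolic copper and zinc superoxide dismutase. The gene (ENSMUSG00000022982, chr16:90220754-90226329, plus strand) was at 91.0 and 140.0 CPM in Input, 143.0 and 101.5 with LacZ probes, 130.4 and 100.9 with ODD and 128.1 and 101.5 with EVEN. In experiment 1 all 3 pull-downs were above Input, by 1.41-fold to 1.57-fold, and in experiment 2 all 3 were below it, at 0.72 of its level. The group means therefore hid the pattern, with log2 fold changes of 0.08 in LacZ, 0.0029 in ODD and -0.0085 in EVEN. Of all genes, 8.36% had the same order of libraries.

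This difference was tested directly, in a test added after the values were seen, as an interaction of experiment and capture. The fitted log2 ratio of pull-down to Input for Sod1, experiment 2 minus experiment 1, was -1.02 (SE 0.13, 95% interval -1.34 to -0.70, adjusted p 0.0124 by edgeR). The same test called 4.99% of all genes, 3.71% in this direction, and 1 of the 9 genes. Input is 1 library in each experiment, so the SE comes from the pull-down libraries alone and does not hold the spread between Input libraries. The p is therefore no replicate check of the difference, and the test could not be fitted without either Input library. The cell type markers given above differed between the experiments in Input and pull-downs alike, and their part in the Sod1 result was not tested. Of the 9 genes 7 had a negative value in this test, and the 8 others had an adjusted p from 0.208 to 0.985.

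Compared per length, in the deposited FPKM (counts per length and depth), the mean level in Input was 213.8 ± 34.6 (SD, n = 2) for Hnrnpa1, 68.9 ± 9.06 for Ewsr1, 65.9 ± 18.3 for Hnrnpa2b1 and 37.99 ± 1.71 for Tardbp. Below them came Taf15 at 36.2 ± 7.15, Sod1 at 28.9 ± 8.98, Matr3 at 27.9 ± 0.953, Atxn2 at 12.6 ± 1.09 and Tia1 at 11.5 ± 1.01. The ranges over the 2 libraries overlapped between Ewsr1 and Hnrnpa2b1, along the run from Tardbp to Matr3, and between Atxn2 and Tia1. Hnrnpa1 was above all others without overlap. In the pull-downs Hnrnpa2b1 came before Ewsr1, and Tia1 came before Atxn2. The length used is that of all annotated exons merged, those of retained-intron transcripts included. It is 15750 bases for Tia1 and 15689 for Atxn2, against 2919 for Taf15. The order therefore depends on the measure. By CPM in Input, Atxn2 ranked 6, Tia1 7 and Taf15 9 among the 9 genes.

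The experiments themselves were compared over 4 libraries each. With group as a second term, 27.4% of all genes differed between experiment 2 and experiment 1, and 0 of the 9 did. Hnrnpa2b1 (0.30, SE 0.10, adjusted p 0.0608) and Ewsr1 (0.25, SE 0.09, adjusted p 0.0689) came nearest, both higher in experiment 2. DESeq2 called Hnrnpa2b1 (adjusted p 0.0372, with 13.1% of all genes higher), and a filter of 50 counts in 2 libraries let both pass (16.3% higher). Both also passed without either Input library, and Sod1 was then called lower in experiment 2, at -0.40 (adjusted p 0.00447 without Input replicate 1 and 0.00446 without Input replicate 2), where 39% and 39.1% of all genes were called. Of the motor neuron markers 5 of 7 were higher in experiment 2, and of the oligodendrocyte lineage markers 4 of 4 were lower. The part of cell makeup in the values of these 9 genes was not tested.

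Other genes of the same pathways were counted from lists. Against Input, 0 of 27 other motor neuron disease genes, 0 of 20 other stress granule genes, 0 of 4 paraspeckle protein genes and 0 of 12 genes of superoxide and peroxide clearance passed in any pull-down without the block. Of 24 other hnRNP genes 1 passed, Pcbp2, whose protein binds poly(C) in RNA. It was at 414.3 and 497 CPM in Input, 291.1 and 265.2 with LacZ probes, 280.3 and 253.3 with ODD and 277.4 and 254.9 with EVEN. Pcbp2 fell in ODD (-0.77, SE 0.17, adjusted p 0.0411) and in EVEN (-0.78, SE 0.17, adjusted p 0.046), and the LacZ libraries were also below both Input libraries. With the block, 7%, 6.55% and 6.41% of all genes were lower in LacZ, ODD and EVEN. In that fit 4 of the 27 disease genes were lower in each pull-down and 0 were higher. Of the 24 hnRNP genes 2, 4 and 3 were lower, and 1 was higher in EVEN. Of the 12 clearance genes 2, 1 and 1 were lower, and 1 was higher in EVEN. Of the 20 stress granule genes and the 4 paraspeckle genes 0 were called in either direction.

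The lists were also counted between the experiments, where 27.4% of all genes were called. Of the 27 disease genes 6 were higher and 4 lower in experiment 2, among them Kif5a, a kinesin heavy chain of axonal transport (0.93, adjusted p 0.000584), and Dctn1, a dynactin subunit (0.51, adjusted p 0.00532). Chchd10, a mitochondrial protein gene, fell by 0.76 (-0.76, adjusted p 0.0145), and Grn, which encodes the lysosomal protein progranulin, fell by 0.73 (-0.73, adjusted p 0.00141). Of the 12 clearance genes 3 were lower in experiment 2, the peroxiredoxin genes Prdx4 (-1.32, adjusted p 0.00284), Prdx3 (-0.74, adjusted p 0.00295) and Prdx6 (-0.53, adjusted p 0.00978). Higher in experiment 2 were also Hnrnpdl of the hnRNP genes (0.43), G3bp2 (0.31) and Atxn2l (0.57) of the stress granule genes, and Pspc1 of the paraspeckle genes (0.51).

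Loci overlapping the gene bodies in part or in whole were examined because reads of an overlapping locus could be counted to a gene. There were 11 such loci, and Hnrnpa1, Hnrnpa2b1 and Taf15 had none. The 3 with the most counts were Scaf4 beside Sod1 (9915 counts over all libraries), Sh2b3 beside Atxn2 (2276) and Rhbdd3 beside Ewsr1 (1850). All 3 are on the opposite strand from their neighbour and passed no test against Input. Scaf4 shares no exon bases with Sod1, while exons of Sh2b3 and Rhbdd3 overlap those of their neighbours. On the same strand, exons of Gm44790 (45 counts over all libraries) overlap those of Tia1. Exons of Gm28285 (105 counts) likewise overlap those of Matr3. The sources used here do not give how counting treated the strand, and reads where such exons overlap cannot be told apart. What overlaps on either strand add to or take from the counts of the genes was not tested.

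Within introns of Atxn2 and Matr3, on the same strand, lie 3 loci of the class TEC, a label for loci that await experimental proof of being genes. They were singled out after their values were seen. Gm43571 (chr5:121715109-121718206), in Atxn2, had in Input 45 and 68 counts, and 86 and 153 with LacZ, 131 and 118 with ODD and 145 and 88 with EVEN probes. Scaled for depth, its log2 fold change over Input was 2.24 (adjusted p 0.0126) in LacZ, 2.08 (adjusted p 0.0174) in ODD and 1.97 (adjusted p 0.0255) in EVEN. Gm42866 (chr5:121742417-121745720), also in Atxn2, rose by 2.68, 2.51 and 2.32 (adjusted p 0.00797, 0.0107 and 0.0178). Gm36989 (chr18:35574907-35577066), in Matr3, rose by 1.11, 1.32 and 0.99 (adjusted p 0.0233, 0.0132 and 0.0433). Thus loci in introns of both genes rose in every kind of pull-down, and the host genes passed no test. Such a rise was common for the class: of 1355 TEC loci tested, 61.5% were higher in LacZ, 58.7% in ODD and 48.8% in EVEN.

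**Figure D4:**
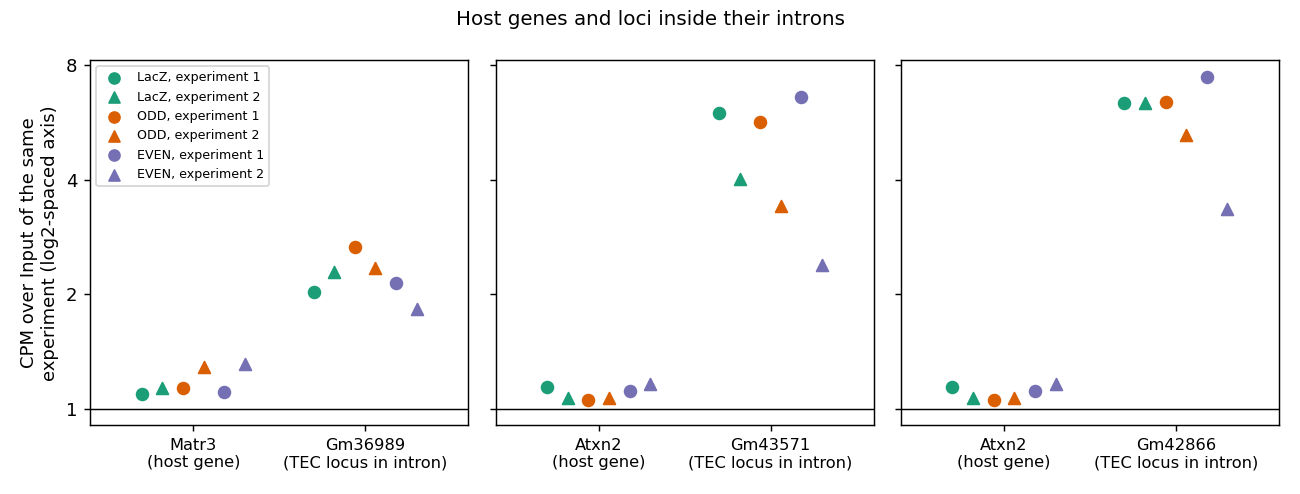
The y axis (log2-spaced) gives CPM over the Input of the same experiment for the host genes Matr3 and Atxn2 (left in each panel) and for a TEC locus in an intron of that gene (right), with 1 point for each of the 6 pull-down libraries. All points of the 3 intronic loci lie above those of their hosts, with the control LacZ among ODD and EVEN.

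Over the 8 libraries, the 9 genes did not follow 1 pattern. The highest correlation of log2(CPM + 1) between any pair was that of Tardbp and Hnrnpa2b1 (r = 0.891), followed by Ewsr1 and Atxn2 (r = 0.870). Among 10567 other genes the one most like Tia1 was Nespas, an antisense noncoding RNA whose counts are uncertain without strand (r = 0.996), at 8.41 and 11.8 CPM in Input and 23.4 to 34.99 in the pull-downs. The one most like Hnrnpa1 was Stx2 (r = 0.994), at 44.7 CPM in ODD replicate 1 and 25.8 to 31.4 in the others. The one most like Sod1 was Phb2 (r = 0.975). For the others they were Mzf1 for Tardbp (0.993), Zcchc8 for Ewsr1 (0.988), Prkrip1 for Hnrnpa2b1 (0.986), Pyroxd1 for Atxn2 (0.975), Naa15 for Matr3 (0.967) and Rtf1 for Taf15 (0.942). These are descriptions over libraries that share an experiment and a capture, and each was the highest of many genes searched.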

How the data were processed

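Per the labels' protocols, 8 libraries of total RNA were made with a stranded, ribosomal RNA-depleting kit. The deposited tables from the authors hold whole-number counts and FPKM by Ensembl gene. The FPKM were equal to the count over gene length and column total (largest relative difference 6.66e-14). Per the submitters' processing notes, cutadapt 3.2, Bowtie2 2.4.2, Picard, HTSeq 0.13.5 and GRCm38 were used. Of 55471 identifiers, 55230 were in GENCODE M21, 99.1% of them with the deposited length, so coordinates and transcripts come from it.

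Counts were tested with edgeR 4.0.16 (R 4.3.3), TMM and the default low-count filter by group, on all 8 libraries, two-sided. The members and the gene lists were chosen with earlier results of these data known. Replicate numbers mark experiments, and deviations of same-numbered libraries correlated at r 0.517 to 0.719. Replicates of a group differed beyond sampling noise (chi-square per degree of freedom 31.5 to 61.5). Normalisation factors were 0.965 to 1.03. Exact matches with Lhx1os were searched in all transcripts of a gene, and dustmasker 1.0.0 ran at level 20. The test was checked on simulated counts. All 9 genes are named. From each list the called genes with the largest changes are named, up to 4. For each gene the most correlated other gene with a mean of at least 10 CPM is named. Of overlapping loci, the 3 with the most counts are named, and also those on the same strand as the gene. Alternatives were DESeq2 1.42.0, RLE size factors, other filters, limma 3.58.1 on log2(FPKM + 1), the replicate block, and leaving out libraries.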

Additional observations from a re-analysis of the deposited data

Results flagged for a closer look

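Sod1 was above Input in all 3 pull-downs of experiment 1 and below it in all 3 of experiment 2. The fitted log2 ratio of pull-down to Input, experiment 2 minus experiment 1, was -1.02 (adjusted p 0.0124 for the interaction in edgeR), in a test chosen after this pattern was seen. Input is 1 library in each experiment and enters all 3 ratios of it, so the spread between Input libraries is not in the p, and whether the pattern would recur with other Input libraries could not be tested.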

How the results depend on the processing

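With 2 libraries a group, leaving one out assumes that the lone library varies like the other groups. Counts of the 9 genes called over Input were 0 with group as the only term. For LacZ they were 1 with DESeq2 (Tia1; 8.67% of all genes higher), limma (Tia1; 5.92%) and the replicate block. For ODD they were 1 with DESeq2 (Tia1; 8.16%), 1 without a filter (Hnrnpa1; 6.34%) and 2 with the block, and for EVEN 2 with the block. Leaving out a library gave 0 to 0 for LacZ and EVEN, and 0 to 1 for ODD, where Hnrnpa1 passed without ODD replicate 2. With ODD and EVEN together against LacZ it was 1 without a filter (Hnrnpa1, 0.94, adjusted p 0.0491, with 0.202% of all genes higher). With the default filter that change was 0.30 without ODD replicate 1 and 1.26 without ODD replicate 2. Between the experiments it was 1 with DESeq2 (Hnrnpa2b1), 2 with the filter of 50 counts in 2 libraries (Ewsr1 and Hnrnpa2b1), and 0 to 3 when a library was left out. The block changed the call of Tia1 and Hnrnpa2b1 and of no other of the 9 genes.

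Over all genes, the calls against Input with no filter beyond 1 count numbered 2118 in LacZ, 2064 in ODD and 1860 in EVEN, with the filter of 50 counts 565, 535 and 494, and with the block 3249, 3169 and 3182. In EVEN, DESeq2 gave 1452 and limma 440. Without replicate 1 of all 3 pull-downs, an alternative chosen after seeing the data, they were 485, 411 and 89, and 0 of the 9 genes were called. Leaving out 1 library gave 214 to 1004 calls for LacZ, 132 to 895 for ODD, and 0 to 737 for EVEN. ODD and EVEN together against LacZ gave 2 genes with DESeq2, 81 with no filter and 0 to 3 with a library left out. The comparison of experiments gave 2167 to 6686, and the interaction test 390 to 1445, 1430 with no filter and 438 with limma.

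Of 45 fold changes of the 9 genes, 15 changed sign under some alternative, all of them at most 0.36 in size with all libraries. Against Input these were Sod1 in ODD (DESeq2 -0.0020, RLE -0.0020, no filter -0.032, replicate block -0.020) and in EVEN (filter of 50 counts 0.033), Ewsr1 in LacZ (filter of 50 counts 0.060, limma 0.041) and in ODD (DESeq2 -0.0011, RLE -0.0011, no filter -0.031), Hnrnpa1 in LacZ (no filter -0.00079) and Taf15 in EVEN (filter of 50 counts 0.019). Against LacZ it was Atxn2 (no filter 0.0086). Leaving out a library gave ranges over 0. Sod1 ran from -0.20 to 0.42 for LacZ, -0.28 to 0.34 for ODD and -0.29 to 0.33 for EVEN, and set against LacZ from -0.31 to 0.19. Ewsr1 ran from -0.13 to 0.11, -0.12 to 0.12 and -0.026 to 0.37 over Input. Taf15 ran from -0.26 to 0.12 in LacZ, -0.21 to 0.17 in EVEN and -0.15 to 0.053 against LacZ. Hnrnpa1 ran from -0.11 to 0.20 in LacZ and -0.60 to 0.13 between the experiments. Atxn2 ran from -0.0040 to 0.17 in ODD and -0.056 to 0.053 against LacZ, and Matr3 from -0.015 to 0.067 between the experiments. The causes were not tested.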
